A study of Saccharomyces cerevisiae with 9 samples.

Results

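The tricarboxylic acid cycle genes of budding yeast (Saccharomyces cerevisiae) were followed as 10 genes taken by name: CIT1, ACO1, IDH1, IDH2, KGD1, KGD2, LSC1, LSC2, FUM1 and MDH1. They are 10 of the 5449 yeast genes with a named probe set on the array, chosen by name and not by a threshold on a measured value. Earlier results of these data were known when they were chosen. Each gene had 1 probe set, and all 10 passed the filter on low signal, which left 5396 genes to be tested. All 9 samples were strain BY4741, a haploid laboratory strain. Its log-phase cells, grown in YPD at 30 °C, were washed and suspended in distilled water. For 3 unfrozen control samples RNA was taken without freezing. Another 3 samples came from cells frozen in suspension at -30 °C for 24 h and 3 from cells frozen for 48 h. Both frozen groups were thawed for 10 min at 30 °C. The unfrozen cells were neither frozen nor thawed, so freezing and thawing cannot be told apart, and the comparison asks which transcripts differ once cells have been through both.

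The tricarboxylic acid cycle runs in the mitochondrial matrix. It joins acetyl groups to oxaloacetate, oxidises the resulting citrate stepwise back to oxaloacetate, and passes the electrons to the respiratory chain as NADH and FADH2. The cycle also supplies 2-oxoglutarate and oxaloacetate for amino acid synthesis. In yeast growing on glucose many of its genes are held low and are raised when the sugar runs out by the Hap2/3/4/5 activator complex, while the retrograde regulators Rtg1 and Rtg3 serve the early steps that lead to 2-oxoglutarate.

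Poly(A)-enriched RNA was measured on Affymetrix Yeast Genome 2.0 arrays, and values below are scaled log2 signals, in which all arrays have an equal median across yeast genes' probe sets. The 3 arrays of a group are the only replicates, and their number limits the precision. The median deposited signal lay between 201 and 392 on 7 arrays and reached 679 and 726 on the frozen arrays of replicate 3 (24 h and 48 h). Ribosomal RNA control probe sets, which a poly(A) selection should leave dim, averaged 6.41 ± 0.84 on unfrozen arrays, 9.35 ± 1.28 at 24 h and 9.07 ± 1.24 at 48 h (SD, n = 3 each). Of the loci deleted in BY4741, URA3 and MET17 lay inside the range of the background probe sets, with LEU2 just above its 95th percentile. The labels mention triplicates as well as 2 independent experiments. The p-values therefore reflect array-to-array spread only, some of which may be technical.

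No cycle gene passed the test after either freezing time. At 24 h 0 of 10 were called against unfrozen cells by limma (adjusted p under 0.05), where 1.00% of all tested genes were. At that time 0 of 10 had an unadjusted p under 0.05, compared with 10.7% of all genes. At 48 h 0 of 10 were called, against 2.91% of all genes, and 3 of 10 (CIT1, KGD2 and LSC2) had an unadjusted p under 0.05, all higher at 48 h, compared with 16.4% of all genes in either direction. Between 48 h and 24 h 0 of 10 members and 0% of all genes were called, with 0 members and 22 genes at an unadjusted p under 0.05. The members' median difference was -0.06 at 24 h and 0.13 at 48 h, beside -0.02 and -0.03 for all genes. Signals from a whole suspension cannot tell fewer intact cells from less RNA per cell. Both frozen groups share the same unfrozen arrays.

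The intervals were wide. Each SE pools the spread of all 3 groups, so the 24 h intervals and p-values also carry the spread of the 48 h arrays. The median SD of the members was 0.47 at 48 h, beside 0.23 at 24 h. The 95% intervals of the 10 fold changes at 24 h reached down to 0.488-fold (MDH1) and up to 2.03-fold (LSC2), and at 48 h from 0.514-fold (MDH1) to 2.30-fold (LSC2). Beyond the test, the 3 frozen arrays lay wholly above the 3 unfrozen ones at 24 h for 1 member (KGD2, against 12.2% of all genes) and wholly below for 2 (LSC1 and MDH1, against 11.6%). At 48 h 2 members lay wholly above (CIT1 and LSC2, against 11.9%) and 0 wholly below (10.6%). These shares run from 0 to 20%, and 10 genes are too few to set them apart from the background.

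**Figure D1:**
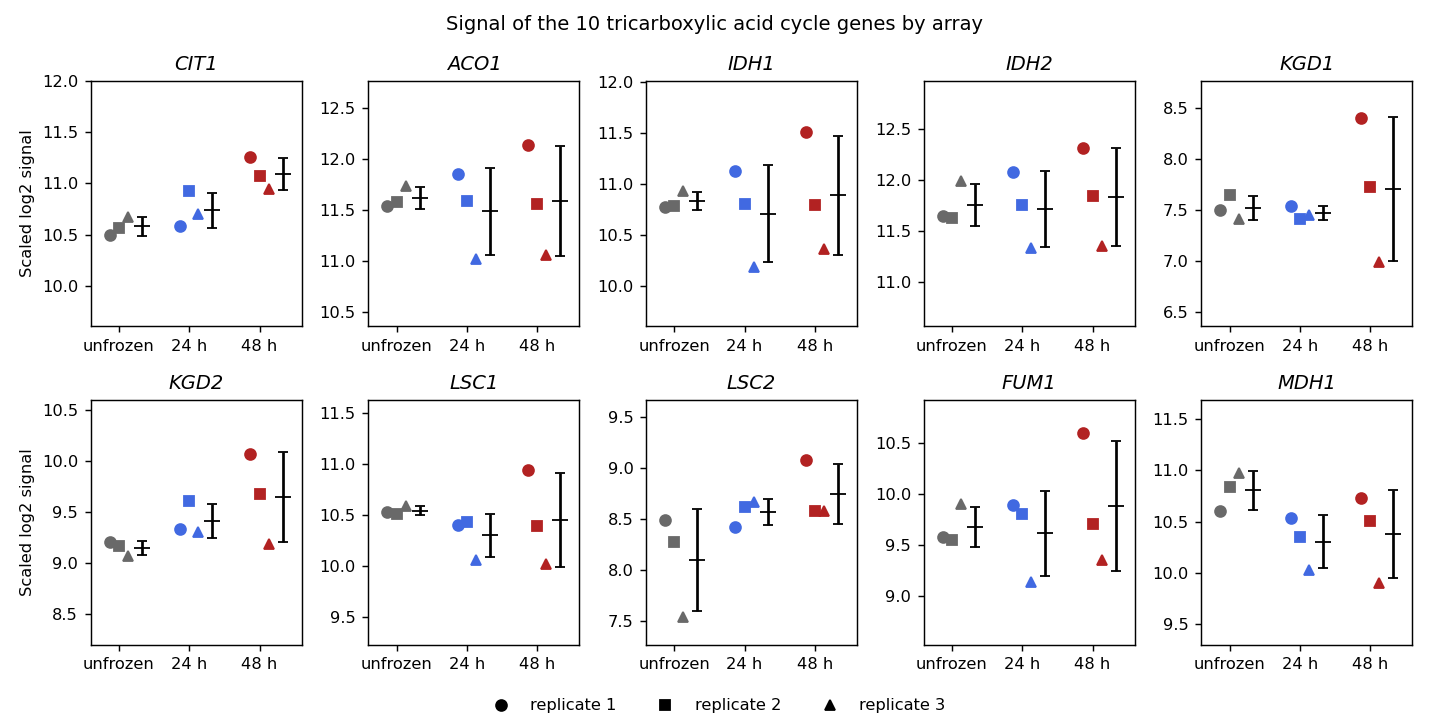
Scaled log2 signal of the 10 cycle genes (vertical axes, each spanning the same number of log2 units) on 3 unfrozen, 3 frozen 24 h and 3 frozen 48 h arrays, with marker shapes for replicates and the mean ± SD of each group beside the points. CIT1 is the gene whose 48 h arrays lie above all unfrozen and all 24 h arrays, while most other genes spread widely among the 48 h arrays.

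CIT1 encodes mitochondrial citrate synthase, which opens the cycle by joining acetyl-CoA to oxaloacetate. Its signal was 10.50, 10.57 and 10.67 on unfrozen arrays 1 to 3, 10.59, 10.92 and 10.70 at 24 h, and 11.26, 11.08 and 10.95 at 48 h. The 48 h arrays stood above every unfrozen and every 24 h array, and the 24 h arrays overlapped the unfrozen ones. The difference from unfrozen cells was 0.52 ± 0.17 at 48 h (SE; 1.43-fold, 95% interval 1.10 to 1.86; adjusted p = 0.159, limma) and 0.16 ± 0.17 at 24 h (adjusted p = 0.803). Its 48 h difference kept its sign in all 25 alternative settings and passed the test in 0 of them. Among the 10 genes CIT1 was the 1 whose 48 h arrays lay wholly above its 24 h arrays, by 0.36 ± 0.17 (adjusted p = 1.00), an arrangement found for 1.59% of all genes, and 0 members showed the opposite order (1.30% of all genes). With the ribosomal RNA signal as a covariate the 48 h difference was 0.38 (adjusted p = 1.00), in a fit that called 0 of all 5396 genes at either time.

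ACO1 encodes aconitase, the iron-sulphur enzyme that turns citrate into isocitrate. It read 11.54, 11.57 and 11.74 on unfrozen arrays, 11.85, 11.59 and 11.02 at 24 h, and 12.14, 11.56 and 11.06 at 48 h. Both frozen groups straddled the unfrozen arrays, with replicate 1 above them and replicate 3 below. The differences were -0.13 ± 0.30 at 24 h (adjusted p = 0.913) and -0.03 ± 0.30 at 48 h (adjusted p = 0.973).

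IDH1 and IDH2 encode the regulatory and the catalytic subunit of NAD-dependent isocitrate dehydrogenase. IDH1 gave 10.77, 10.78 and 10.93 on unfrozen arrays, 11.12, 10.80 and 10.18 at 24 h, and 11.50, 10.79 and 10.36 at 48 h. IDH2 gave 11.64, 11.63 and 11.99 on unfrozen arrays, 12.07, 11.75 and 11.33 at 24 h, and 12.31, 11.84 and 11.35 at 48 h. For both genes the frozen groups again ran from above the unfrozen arrays (replicate 1) to below them (replicate 3). Their mean differences lay between -0.12 and 0.08, each smaller than its SE of 0.31 (IDH1) or 0.29 (IDH2).

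KGD1 and KGD2 encode the dehydrogenase (E1) and the succinyl transferase (E2) of the 2-oxoglutarate dehydrogenase complex. KGD2 read 9.21, 9.16 and 9.07 on unfrozen arrays, 9.34, 9.61 and 9.31 at 24 h, and 10.07, 9.68 and 9.19 at 48 h. All 24 h arrays exceeded the unfrozen arrays, and at 48 h replicate 3 lay inside their range. The KGD2 difference was 0.27 ± 0.21 at 24 h (adjusted p = 0.740) and 0.50 ± 0.21 at 48 h (1.41-fold, adjusted p = 0.279); without replicate 1 of the 48 h arrays the second was 0.29. KGD1 gave 7.50, 7.65 and 7.41 on unfrozen arrays, 7.54, 7.42 and 7.46 at 24 h, and 8.40, 7.73 and 6.99 at 48 h. Its 24 h arrays sat within the unfrozen range, whereas its 48 h arrays spanned it on both sides with an SD of 0.71, the widest of any member in any group.

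LSC1 and LSC2 encode the alpha and beta subunits of succinyl-CoA ligase, the step that makes ATP directly. LSC2 read 8.49, 8.28 and 7.54 on unfrozen arrays, 8.42, 8.62 and 8.67 at 24 h, and 9.08, 8.58 and 8.58 at 48 h. Unfrozen replicate 3 lay well below the other 8 arrays, and the 48 h arrays were all above the unfrozen ones. The LSC2 difference was 0.47 ± 0.25 at 24 h (adjusted p = 0.563) and 0.64 ± 0.25 at 48 h (1.56-fold, adjusted p = 0.235); without unfrozen replicate 3 these values were 0.19 and 0.36. LSC1 gave 10.53, 10.50 and 10.59 on unfrozen arrays, 10.40, 10.43 and 10.06 at 24 h, and 10.94, 10.39 and 10.02 at 48 h. Every 24 h array was below the unfrozen arrays, by 0.24 on average (SE 0.23, adjusted p = 0.779), and at 48 h the groups overlapped (-0.09 ± 0.23, adjusted p = 0.884).

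FUM1 encodes fumarase, which hydrates fumarate to malate in the matrix and also has a cytosolic pool. Its signal was 9.58, 9.55 and 9.91 on unfrozen arrays, 9.90, 9.81 and 9.14 at 24 h, and 10.60, 9.71 and 9.36 at 48 h. Both frozen groups overlapped the unfrozen arrays, with differences of -0.06 ± 0.31 at 24 h (adjusted p = 0.957) and 0.21 ± 0.31 at 48 h (adjusted p = 0.784).

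MDH1 encodes mitochondrial malate dehydrogenase, which closes the cycle by regenerating oxaloacetate. It read 10.60, 10.84 and 10.98 on unfrozen arrays, 10.54, 10.35 and 10.02 at 24 h, and 10.73, 10.51 and 9.90 at 48 h. All 24 h arrays were below all unfrozen arrays, and at 48 h replicate 1 overlapped them. MDH1 had the most negative difference of the 10 genes at both times, -0.50 ± 0.24 at 24 h (adjusted p = 0.507) and -0.43 ± 0.24 at 48 h (adjusted p = 0.421). With the scaling median taken over every probe set on the array, the 48 h difference of all genes had a median of -0.37 in place of -0.03. The MDH1 difference was then -0.77 and passed the test (adjusted p = 0.0412). On values as deposited it was -0.0045 at 48 h and -0.21 at 24 h, and with the ribosomal RNA covariate -0.23 and -0.28. Without 48 h replicate 3 the MDH1 difference at 48 h was -0.19, and over all left-out arrays it ran from -0.71 to -0.10 at 48 h and from -0.72 to -0.28 at 24 h.

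**Figure D2:**
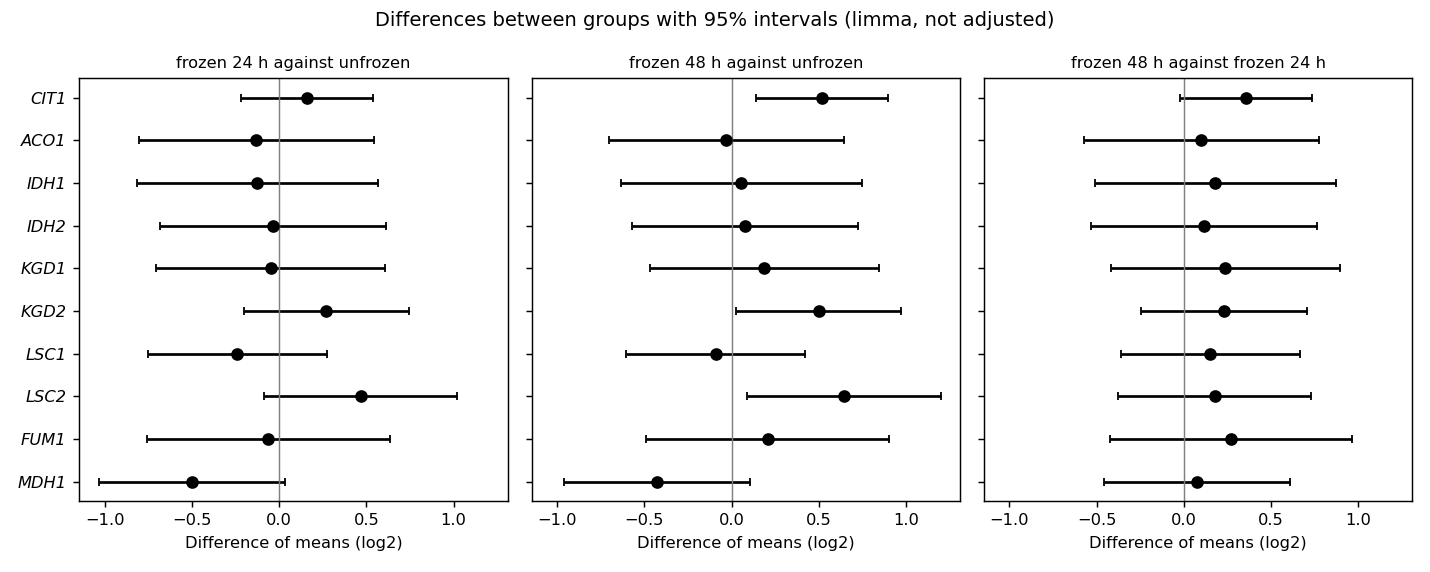
Difference of group means (log2, horizontal axes) with its 95% limma interval for each cycle gene, in the 3 comparisons between groups. At 48 h against unfrozen cells the intervals of CIT1, KGD2 and LSC2 lie above 0 before adjustment, and all 10 points of 48 h against 24 h are above 0 with intervals that reach 0.

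At 48 h against 24 h all 10 differences were above 0, between 0.07 (MDH1) and 0.36 (CIT1), with a median of 0.18 beside 0.01 for all genes. That count rested on single arrays. Between the arrays of replicate 1 the 48 h value was higher for 10 of 10 genes, with a median of 0.60 and a range from 0.19 (MDH1) to 0.86 (KGD1), beside 0.08 for all genes. Replicate 2 had 5 of 10 above 0 and a median of 0.03, and replicate 3 had 5 of 10 and a median of -0.01. CIT1 was above 0 in all 3, at 0.67, 0.15 and 0.25. Without replicate 1 of the 48 h arrays 3 of 10 differences remained above 0 and the median was -0.10. Without replicate 3 of the 24 h arrays 6 of 10 were above 0.

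The cycle genes shared a pattern over the arrays that did not follow the groups. The mean of the 10 genes, each centred on its own mean, was -0.07, -0.05 and -0.02 on unfrozen arrays, 0.07, 0.03 and -0.31 at 24 h, and 0.60, 0.08 and -0.33 at 48 h. All 10 genes were above their own mean on the first 48 h array, 2 of 10 on the third 48 h array and 1 of 10 on the third 24 h array. Unfrozen arrays lay close together. The median SD of the members was 0.11 on unfrozen arrays, 0.23 at 24 h and 0.47 at 48 h, beside 0.16, 0.24 and 0.36 for all genes. The first 48 h array also had the smallest gap between the 3' and 5' probe sets of ACT1 (0.39), and the third 24 h and 48 h arrays had gaps of 0.81 and 0.78. Across 7 such control genes the correlation of the gap with the members' mean ran from -0.87 (ACT1) to 0.85 (SPT15) over 9 arrays. The third 24 h and 48 h arrays also had the highest deposited medians (679 and 726). With the log2 deposited median the members' mean had r = -0.58, and single members ran from -0.75 (MDH1) to 0.14 (LSC2). With the ribosomal RNA signal the mean had r = -0.0059, and single members ran from -0.66 (MDH1) to 0.6 (CIT1). The part of RNA quality, of array brightness or of a single library in the members' pattern was not tested.

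**Figure D3:**
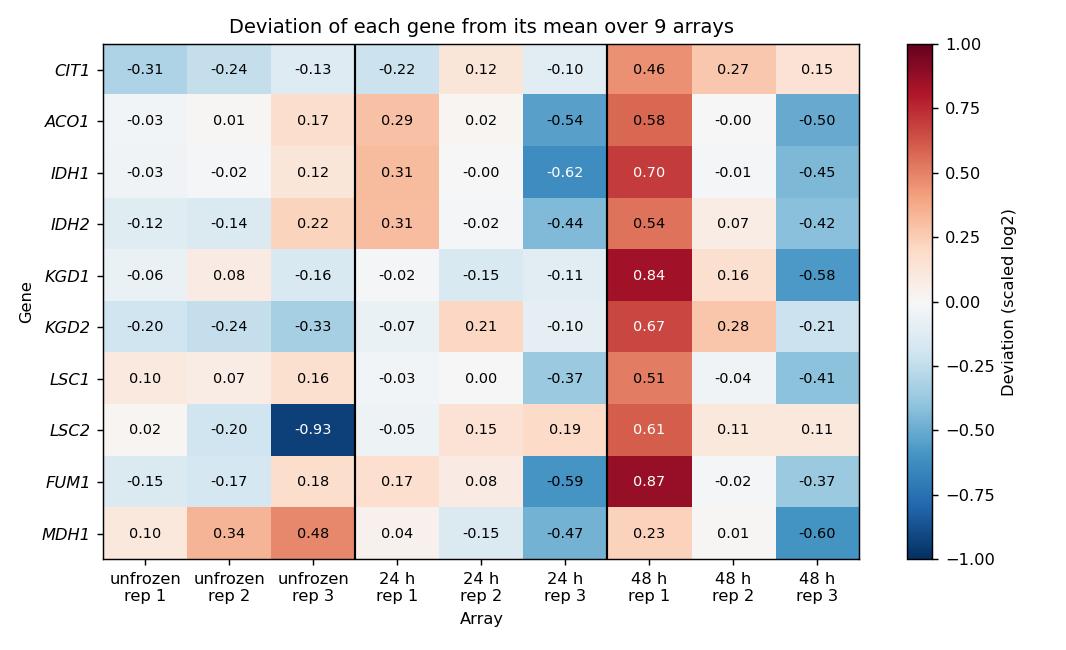
Deviation of each cycle gene (rows) from its own mean over the 9 arrays (columns, unfrozen, 24 h and 48 h, with replicate numbers), in log2 units with the value printed in each cell. The first 48 h array is above the mean for all 10 genes, and the third 24 h and 48 h arrays are below it for most, with LSC2 as an exception at both times and CIT1 at 48 h.

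Over the 9 arrays 43 of the 45 pairs of members had a correlation above 0 and 31 had one above 0.5, with a median r of 0.69. The highest was 0.99 for ACO1 with IDH1, followed by 0.97 for ACO1 with IDH2 and for IDH1 with IDH2, the 3 genes of the steps from citrate to 2-oxoglutarate. FUM1, of a later step, came next, with IDH1 (0.96), IDH2 (0.95) and ACO1 (0.94), so high values were not limited to neighbouring steps. FUM1 had the highest mean correlation with the other 9 members (0.72). MDH1 (0.39), CIT1 (0.37) and LSC2 (0.18) had the lowest, and the lowest single pair was LSC2 with MDH1 (-0.47). These are Pearson values, and the rank correlation (Spearman) differed for some pairs. It was lower for KGD1 with LSC1 (0.35 against 0.81) and KGD1 with FUM1 (0.32 against 0.77), and higher for CIT1 with LSC2 (0.68 against 0.57). These arrays share their scaling, and the values are a description, with no share over other gene pairs beside them.

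The 3 enzymes with a pair of subunits among the members were then compared by the change of the subunit difference from its unfrozen mean, since signals of different probe sets are not on a common scale. IDH1 minus IDH2 changed by -0.09 ± 0.11 at 24 h and -0.02 ± 0.13 at 48 h (SD, n = 3; exact permutation p = 0.5 and 1). KGD1 minus KGD2 changed by -0.32 ± 0.22 at 24 h (exact permutation p = 0.1) and -0.31 ± 0.27 at 48 h (exact permutation p = 0.2). Without replicate 2 of the 24 h arrays the first was -0.19, and without replicate 3 of the 48 h arrays the second was -0.18. For KGD1 minus KGD2 every 24 h array was below every unfrozen array, so its p of 0.1 at 24 h is the smallest possible. LSC1 minus LSC2 took the values -0.40, -0.21 and 0.61 on unfrozen arrays, -0.46, -0.63 and -1.04 at 24 h, and -0.58, -0.62 and -0.9999 at 48 h. Every frozen array was below every unfrozen array, by 0.71 at 24 h and 0.73 at 48 h on average. The share of other gene pairs with such an order was not computed. Among single genes 11.6% lay wholly below the unfrozen arrays at 24 h and 10.6% at 48 h. The third unfrozen array, the one with low LSC2, stood apart from the other 2. Without that array (these omissions were chosen after seeing the data) the LSC1 minus LSC2 change was -0.40 at 24 h and -0.43 at 48 h. With all arrays the exact two-sided permutation p was 0.1 at each time, the smallest that 3 arrays against 3 allow, and 0.2 after Benjamini-Hochberg adjustment over the 6 tests. None of the 6 tests could therefore reach a p under 0.05, whatever the values.

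**Figure D4:**
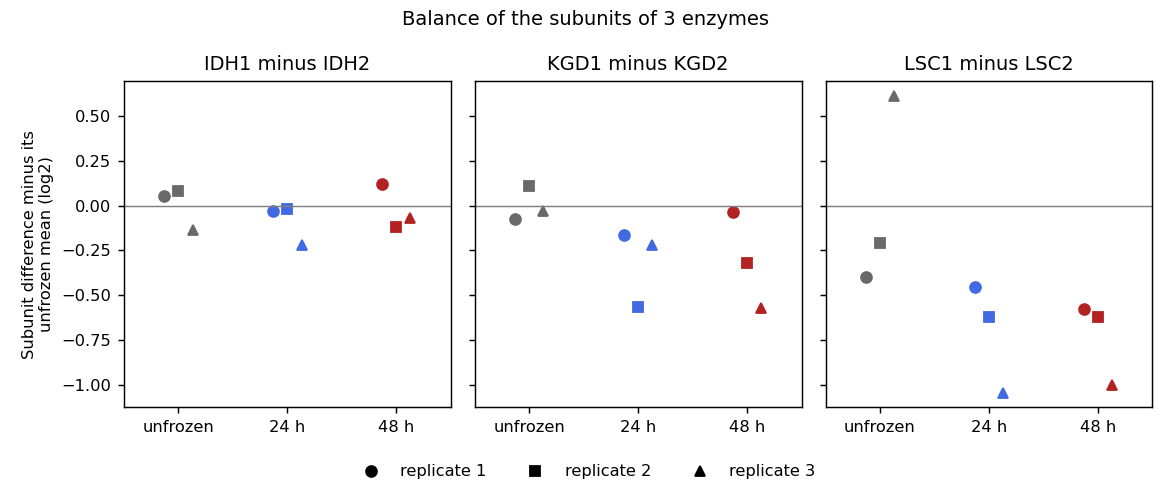
Difference in log2 signal between the subunits of isocitrate dehydrogenase, the 2-oxoglutarate dehydrogenase complex and succinyl-CoA ligase, minus its unfrozen mean (vertical axis), on 3 unfrozen, 3 frozen 24 h and 3 frozen 48 h arrays with marker shapes for replicates. The isocitrate dehydrogenase points stay within about 0.22 of the unfrozen mean, and the succinyl-CoA ligase points of all 6 frozen arrays lie below the 3 unfrozen ones. The share of other gene pairs with such an order was not computed.

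Genes around the cycle were read from 6 lists, drawn up with earlier results of these data known. Counts over these lists are therefore a description and no test of the lists. Of their 46 measured genes 3 (6.52%) passed the test at 48 h against unfrozen cells, beside 2.91% of all genes: PYC1 and IDP2 rose and DIC1 fell. At 24 h 0 of 46 passed in limma, beside 1.00% of all genes. At 24 h 10 of the 46 genes had an unadjusted p under 0.05, a larger share than the 10.7% of all genes (579 of 5396). At 48 h 11 of the 46 did, again a larger share than the 16.4% of all genes (886 of 5396). PYC1 encodes a cytosolic pyruvate carboxylase, which makes oxaloacetate from pyruvate. It read 8.04, 8.08 and 8.23 on unfrozen arrays, 9.38, 8.92 and 9.17 at 24 h, and 9.93, 9.04 and 9.09 at 48 h. Every frozen array was above every unfrozen array, by 1.04 ± 0.24 at 24 h (adjusted p = 0.0816) and 1.24 ± 0.24 at 48 h (2.35-fold, adjusted p = 0.0239). The PYC1 call stood in 18 of 25 alternatives. It was lost without unfrozen replicate 1 (adjusted p = 0.117) or 2 (0.121), without all arrays of replicate 1 (0.0772) or 2 (0.367), and with only the groups compared in the fit (0.0626). It was also lost on values as deposited (0.399) and with the ribosomal RNA signal as a covariate (0.784). That covariate separates frozen from unfrozen arrays and left 0 of all genes called, so a call lost with it is not particular to a gene.

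DIC1 encodes the mitochondrial dicarboxylate carrier, which exchanges malate or succinate for phosphate. It read 10.04, 9.94 and 10.44 on unfrozen arrays, 9.49, 8.97 and 8.66 at 24 h, and 9.40, 8.93 and 8.55 at 48 h. The frozen arrays were all below the unfrozen ones, by -1.10 ± 0.27 at 24 h (adjusted p = 0.103) and -1.18 ± 0.27 at 48 h (adjusted p = 0.0477). The DIC1 call stood in 13 of 25 alternatives, and was lost without any single unfrozen array (adjusted p = 0.134 to 0.158), without 48 h replicate 2 (0.144) or 3 (0.0865), and without 24 h replicate 2 (0.0871). It was also lost without all arrays of replicate 2 (0.561) or 3 (0.109), with only the groups compared (0.0752), with no trend (0.0631) and on values as deposited (0.952). With the ribosomal RNA covariate the DIC1 difference was -0.90 (adjusted p = 1.00). IDP2 encodes the cytosolic NADP-dependent isocitrate dehydrogenase, a source of NADPH outside the mitochondrion. It read 5.997, 6.34 and 6.45 on unfrozen arrays, 6.79, 6.70 and 7.21 at 24 h, and 7.06, 7.29 and 7.19 at 48 h, again with no overlap. Its difference was 0.64 ± 0.20 at 24 h (adjusted p = 0.233) and 0.91 ± 0.20 at 48 h (adjusted p = 0.0449), and the call stood in 9 of 25 alternatives. The IDP2 call was lost without any single 48 h array (0.0519 to 0.148) or unfrozen array (0.0597 to 0.205), and without 24 h replicate 1 (0.0741) or 2 (0.0700). It was also lost without all arrays of replicate 1 (0.243) or 2 (0.604), with only the groups compared (0.0910), and with the ribosomal RNA covariate (1.00). Quantile normalization (0.0527), the median over every probe set (0.146), values as deposited (0.784) and a 2-fold minimum removed it too. All 3 genes kept their direction at 48 h in all 25.

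In the list of isozymes 1 of 7 measured genes was called at 48 h (IDP2) and 0 at 24 h, with median differences of 0.49 and 0.43. CIT3, the second mitochondrial citrate synthase, differed by 0.71 ± 0.28 at 24 h (adjusted p = 0.381) and 1.05 ± 0.28 at 48 h (adjusted p = 0.0879), with no overlap with unfrozen arrays at either time. Among the 8 genes of succinate dehydrogenase and its assembly 0 were called, with medians of 0.14 at 24 h and 0.50 at 48 h. The assembly factors SDH5 (0.60 ± 0.21 and 0.65 ± 0.21) and SDH8 (0.57 ± 0.20 and 0.65 ± 0.20) had the smallest p at 24 h and 48 h, with adjusted p of 0.146 and 0.131 at 48 h.

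Of the 11 genes of pyruvate entry and shared dehydrogenase subunits 1 was called at 48 h (PYC1), with medians of -0.08 at 24 h and -0.06 at 48 h. MPC3, a subunit of the mitochondrial pyruvate carrier, averaged 1.66 ± 0.73 above unfrozen at 24 h and 1.83 ± 0.73 at 48 h (adjusted p = 0.454 and 0.252), with replicate 1 of each frozen group inside the unfrozen range. Of the 8 carriers 1 was called at 48 h (DIC1), and the medians were -0.24 at both times. OAC1, the oxaloacetate carrier, differed by -0.55 ± 0.18 at 24 h (adjusted p = 0.255) and -0.72 ± 0.18 at 48 h (adjusted p = 0.0721), with all frozen arrays below all unfrozen ones.

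In the list drawn up around the glyoxylate cycle, which bypasses the decarboxylation steps, 0 of 4 genes were called, with medians of 0.36 at 24 h and 0.52 at 48 h. The list holds ICL1 and MLS1 and their relatives ICL2 and DAL7, which need not act in that cycle. The malate synthase genes DAL7 (-0.31 ± 0.13) and MLS1 (0.78 ± 0.37) had the smallest p at 24 h, and ICL2 (0.36 ± 0.18) and MLS1 (0.74 ± 0.37) at 48 h. Of the 8 regulators 0 were called, and the medians were -0.16 at both times. HAP4, the regulated activating subunit of the Hap complex, read 9.53, 9.73 and 9.57 on unfrozen arrays, 9.19, 8.98 and 7.92 at 24 h, and 9.70, 9.07 and 8.38 at 48 h. Its 24 h arrays were all below the unfrozen arrays (-0.91 ± 0.37, adjusted p = 0.389), and at 48 h the first array reached their range (-0.56 ± 0.37, adjusted p = 0.502). MKS1, a negative regulator of the retrograde pathway, differed by -0.34 ± 0.16 at 24 h and -0.30 ± 0.16 at 48 h.

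Between 48 h and 24 h 0 genes of the 6 lists had an unadjusted p under 0.05. The smallest p in each list belonged to IDP2 (0.28) and CIT3 (0.34), SDH4 (0.38) and SDH1 (0.40), PYC2 (0.22) and PYC1 (0.20), ICL1 (0.31) and DAL7 (0.08), CTP1 (-0.19) and ODC2 (-0.17), and RTG1 (0.47) and HAP4 (0.35), each with its difference in log2.

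Outside these lists, the 5 genes whose values over the 9 arrays were most like the members' mean were LAS21 and PNS1 (r = 0.98 each), MDM31 (0.98), MCP1 (0.98) and AAT2 (0.98). The ranking used Pearson r. The Spearman correlation was 0.80 for LAS21, 0.95 for PNS1 and MDM31, 0.92 for MCP1 and 0.90 for AAT2. Genes lower in the ranking included some with a Spearman correlation of 0.98. LAS21 acts in the synthesis of membrane anchors for proteins, MDM31 and MCP1 encode mitochondrial membrane proteins, and AAT2 encodes the cytosolic aspartate aminotransferase. A correlation above 0.9 was found for 307 of 5386 genes (5.70%) and one below -0.9 for 4.7%. The median over the 5386 genes was 0.23. None of the 5 genes was called in any comparison, with adjusted p of 0.562 or higher.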

How the data were processed

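The deposited tables hold 1 linear signal intensity per probe set and array, made by the authors with GCOS. The labels also name GeneSpring 7.3.1 with scaling per chip and per gene, which the deposited intensities do not show, since their medians differ between arrays. The genome build is not given in the sources used here. Samples were grouped by their titles. Probe sets were named from the platform annotation (1 gene per probe set, the brightest per gene). Intensities were taken to log2, each array was set to a common median over S. cerevisiae probe sets, and genes were kept whose mean exceeded 2.21, the 95th percentile among S. pombe probe sets, which served as background. Group means were fitted to all 9 arrays with limma 3.58.1 (R 4.3.3, eBayes with trend), and p-values were adjusted by Benjamini-Hochberg over 5396 genes, with calls at an adjusted p under 0.05. The fit was tested on data simulated with independent noise for each gene and changes planted at 24 h. It called 13.8% of 1.5-fold, 49.4% of 2-fold and 88.5% of 4-fold changes, and 5.02% of its calls were false. A change of the size seen in the members would therefore often be missed.

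All members are named. Of each related list the called genes and, in each comparison, the 2 with the smallest p are named, together with the 5 genes most like the members. Members and lists were chosen with earlier results of these data known. Promoter and protein sequences were not analysed here. Same-numbered 24 h and 48 h arrays deviated together (r = 0.59, 0.39 and 0.79 over all genes). Differently numbered 24 h and 48 h arrays gave r from -0.67 to 0.27. Deviations from a mean of 3 arrays sum to 0, so these values depend on each other. Same-numbered unfrozen arrays did not pair with the frozen ones (r from -0.38 to 0.25), so the pairing of the frozen arrays comes from the data alone. Alternatives covered scaling, filter, pseudocount, trend, covariates, blocks and left-out arrays.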

Additional observations from a re-analysis of the deposited data

Results flagged for a closer look

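Ribosomal RNA control probe sets, which belong to no comparison of the cycle genes, carried more signal on frozen than on unfrozen arrays. Their mean scaled log2 signal was 9.35 at 24 h and 9.07 at 48 h, against 6.41 on unfrozen arrays (17 probe sets, 3 arrays per group). Every frozen array (7.64 to 10.43) was above every unfrozen array (5.45 to 7.02). With this signal as a covariate 0 of all 5396 genes were called at 24 h or 48 h, in place of 54 and 157. The count of 0 cycle genes in that fit therefore says nothing about them in particular. Because the signal separates frozen from unfrozen arrays, that fit cannot tell it apart from freezing. The part of ribosomal RNA in the members' values was not tested further.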

How the results depend on the processing

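The count of called cycle genes stayed at 0 in 25 alternatives at 24 h against unfrozen and in 26 at 48 h against 24 h, and in 24 of 25 at 48 h against unfrozen. The exception was the median taken over every probe set, with 1 call (MDH1, -0.77). That scaling put the members' median at -0.38 at 24 h and -0.20 at 48 h, with all genes at -0.34 and -0.37, and turned CIT1 (-0.17) and KGD2 (-0.054) at 24 h and IDH1 (-0.28), IDH2 (-0.26), KGD1 (-0.15) and FUM1 (-0.13) at 48 h. Values as deposited gave a members' median of 0.56 at 48 h, with all genes at 0.40, and turned ACO1 (0.16), IDH1 (0.17), IDH2 (0.26), KGD1 (0.25), LSC1 (0.054) and FUM1 (0.23) at 24 h and ACO1 (0.39) and LSC1 (0.33) at 48 h. Quantile normalization turned ACO1 (0.058) and IDH2 (0.17) at 24 h and ACO1 (0.10) at 48 h. The ribosomal RNA covariate turned ACO1 (0.18), IDH1 (0.19), IDH2 (0.24), KGD1 (0.027) and FUM1 (0.043) at 24 h and ACO1 (0.25) at 48 h. Of 760 values of single genes in all alternatives 63 turned sign, and 0 of those 63 were called.

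Leaving out arrays moved the members' median at 48 h against unfrozen between -0.21 and 0.44. It turned differences at 24 h for ACO1 (-0.35 to 0.16), IDH1 (-0.36 to 0.18), IDH2 (-0.27 to 0.28), KGD1 (-0.10 to 0.044) and FUM1 (-0.25 to 0.29). At 48 h against unfrozen it turned ACO1 (-0.35 to 0.29), IDH1 (-0.28 to 0.37), IDH2 (-0.21 to 0.44), KGD1 (-0.17 to 0.55), LSC1 (-0.34 to 0.15) and FUM1 (-0.20 to 0.58). At 48 h against 24 h it turned ACO1 (-0.18 to 0.36), IDH1 (-0.13 to 0.45), IDH2 (-0.12 to 0.36), KGD1 (-0.11 to 0.60), KGD2 (-0.025 to 0.46), LSC1 (-0.094 to 0.37), LSC2 (-0.064 to 0.31), FUM1 (-0.084 to 0.53) and MDH1 (-0.10 to 0.31). The cause of these turns was not tested.

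With the replicate number as a block 0 cycle genes were called in any comparison, and the count over all genes was 113 in place of 54 at 24 h and 211 in place of 157 at 48 h. A block on the 6 frozen arrays alone, chosen after seeing the data, called 0 cycle genes and 0 genes, with 135 genes and 1 cycle gene at an unadjusted p under 0.05. Over all alternatives the count over all genes ran from 0 to 139 at 24 h and from 0 to 265 at 48 h against unfrozen. The 3 arrays per group limit the precision of every value.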
